A study of Homo sapiens with 6 samples.

Results

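The genes described here are 33 genes of cholesterol synthesis and of its control by the sterol regulatory element-binding proteins (SREBPs), chosen by symbol from a list that names enzymes, regulators, fatty acid targets and sterol transporters. All 33 were found among the 20115 genes of the authors' deposited gene table, and 4 of them also gave their name to a readthrough region among 2014 such regions. The list does not cover every gene of the pathway. RNA came from MDA-MB-231 cells, a mesenchymal-like human line from a triple-negative breast cancer. In 3 libraries UBE3D, which encodes a ubiquitin ligase tied to the pre-mRNA 3' end cleavage machinery, was knocked down by doxycycline-inducible short hairpins carried by an integrated lentivirus, and 3 libraries came from control cells. The labels give the same treatment text for both groups and do not say which hairpin the control cells carried or whether they received doxycycline. They mark every sample as pooled and do not state separate cultures, so the spread behind each p-value is that among the libraries and may be technical.

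Cells make cholesterol from acetyl-CoA through mevalonate, farnesyl diphosphate, squalene and lanosterol. The SREBP factors are made as membrane proteins of the endoplasmic reticulum, where SCAP escorts them and INSIG proteins hold them back when sterols are plentiful. When sterols run low, SCAP carries SREBP to the Golgi in COPII vesicles, the protease encoded by MBTPS1 makes a first cut, and the intramembrane protease encoded by MBTPS2 releases the part that enters the nucleus. SREBF2 is best known for driving sterol synthesis and SREBF1 for driving fatty acid synthesis.

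The genes went both ways. In the authors' deposited table, 5 of the 33 rose at an adjusted p under 0.05 (15.2%, against 4.62% of all 20115 genes) and 4 fell (12.1%, against 7.93% of all genes). The members are more abundant than most genes, with a median mean normalized count of 635 against 90.4 over all genes, and calls are more frequent among abundant genes. Among the 9743 genes whose mean reached 100 normalized counts, 7.45% rose and 12.4% fell, and 31 members lie in that range, all 9 called ones among them. The share of members that fell is near that second background. The median log2 fold change of the 33 members was 0.06, and that of all genes was -0.03. Across the members, the change ran from -1.68 for MBTPS2 to 0.72 for STARD4, with standard errors (SE) from 0.08 to 0.19. Every change is the knockdown over control value of the authors' deposited table on the log2 scale, shrunken toward 0 by the authors' processing, and no value per library was analysed here.

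**Figure D1:**
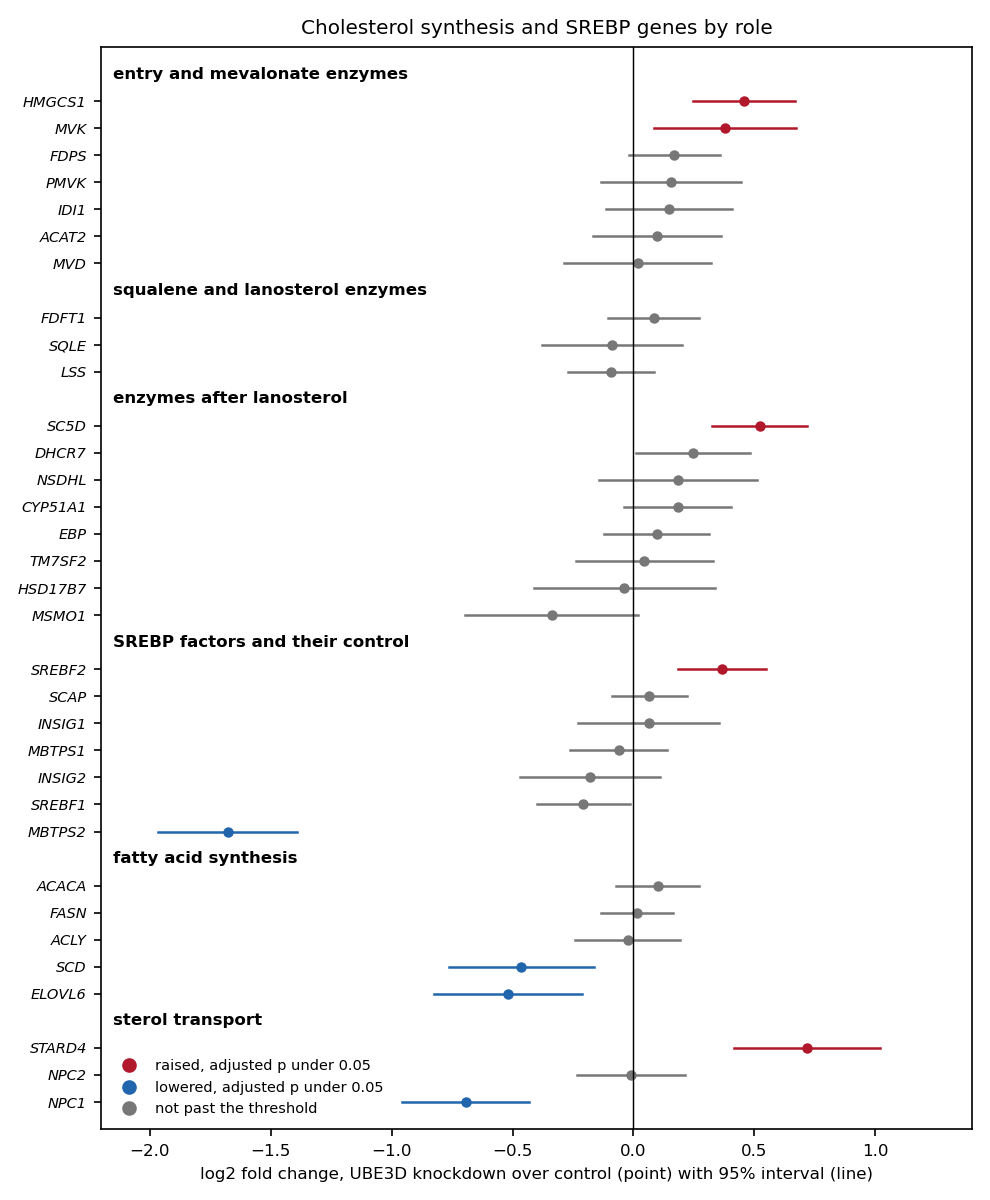
Log2 fold change of each of the 33 genes in UBE3D knockdown over control cells (points) with its normal 95% interval (lines), grouped by role, red for raised, blue for lowered and grey for genes not past an adjusted p of 0.05. MBTPS2 stands far to the left at -1.68, and the other called genes lie between -0.69 and 0.72.

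UBE3D, the targeted gene, was lower in knockdown cells, with a change of -0.80 (log2, SE 0.37, adjusted p = 0.00632) in the authors' deposited table at a low average of 36.7 normalized counts. The call was lost when the shrunken change was put to a Wald test (adjusted p = 0.295). Marker levels for the line were mixed, as mean normalized counts per kilobase of exon computed from the authors' deposited table. The mesenchymal genes AXL, VIM, CD44 and MSN stood at 2207, 1519, 869 and 851, and ZEB1 and SPARC lower, at 71.7 and 17.1. The hormone receptor genes ESR1 and PGR were low, at 1.60 and 3.26, as was the epithelial gene CDH1 at 12.1, while KRT18, KRT8, EPCAM and GATA3 stood at 774, 527, 152 and 23.3. These markers moved too. Of 6 mesenchymal markers, VIM (-0.34), CD44 (-0.26), MSN (-0.62), ZEB1 (-0.35) and SPARC (-1.19) fell on the log2 scale and AXL (0.01) did not pass, and of 7 luminal or epithelial markers CDH1 rose (1.06), EPCAM fell (-0.67) and ESR1, PGR, GATA3, KRT8 and KRT18 did not pass, in the authors' deposited table. Whether these shifts have a part in the lipid gene changes was not tested. In RNA from bulk cells, fewer cells that express a gene and less RNA per cell cannot be told apart.

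MBTPS2, which encodes the intramembrane protease of the last SREBP cut, fell the most of the 33 genes. Its change of -1.68 (log2, SE 0.15, adjusted p = 1.46e-28) in the authors' deposited table is a level 3.20-fold lower than in control cells, and its mean was 573 normalized counts. It ranked 55 from the lowest of all 20115 genes, and 22 from the lowest among the 9743 genes whose mean reached 100. MBTPS2 lies on chromosome X (21839636 to 21885424, plus strand, GENCODE 29 on GRCh38). YY2, an intronless zinc finger gene within the MBTPS2 locus on the same strand, was at -0.04 (log2, SE 0.17, adjusted p = 0.872) in the authors' deposited table. The partner protease gene MBTPS1 was at -0.06 (SE 0.10, adjusted p = 0.708) in the same table. The change of MBTPS2 minus that of MBTPS1 was -1.62 (SE 0.18, 95% interval -1.97 to -1.26), taking the errors of the 2 genes as independent. The pair was picked after its values were seen. MBTPS2 is also needed for the cleavage of the stress sensor ATF6, whose own RNA was at -0.00 (SE 0.10, adjusted p = 0.992) in the authors' deposited table.

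Of the SREBP genes themselves, SREBF2 rose by 0.37 log2 units (SE 0.09, adjusted p = 0.000128, 1.29-fold) in the authors' deposited table, where its mean normalized count was 746. SREBF1 was at -0.21 (SE 0.10, adjusted p = 0.0792) at a mean of 784, which did not pass the threshold. SREBF2 minus SREBF1 was 0.57 (SE 0.13, 95% interval 0.31 to 0.84), a pair picked after its values were seen. The escort gene SCAP was at 0.07 (95% interval -0.09 to 0.22), the retention gene INSIG1 at 0.06 (-0.23 to 0.36) and its paralog INSIG2 at -0.18 (-0.47 to 0.11) in the authors' deposited table. INSIG1 is among the best known SREBP targets, and its interval allows a change of up to 0.36 upward. Of the 7 genes of SREBP factors and their control, 1 thus rose and 1 fell (14.3% each), and 5 did not pass. Of genes whose mean reached 100, 7.45% rose and 12.4% fell.

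Among 18 enzymes from acetyl-CoA to cholesterol, 3 rose (16.7%), none fell, and 15 did not pass. Of genes whose mean reached 100, 7.45% rose and 12.4% fell. Of the 18 enzymes, 14 lay above 0, and the median log2 fold change of the 18 was 0.12. The unadjusted p of the authors' deposited table was under 0.05 for 7 of the 18 (38.9%), 6 upward and 1 downward, against 24.2% of all genes, 1845 upward and 3031 downward. These enzymes are more abundant than most genes (median mean 451 normalized counts, against 90.4), and that share was not computed for genes of like abundance. HMGCS1, the cytosolic HMG-CoA synthase that commits acetyl units to the pathway, rose by 0.46 (SE 0.11, adjusted p = 2.50e-05, 1.37-fold) in that table, with a mean of 487 normalized counts. MVK, mevalonate kinase, rose by 0.38 (SE 0.15, adjusted p = 0.0109, 1.30-fold) at a mean of 153. This call was lost at a threshold of 0.01 and in a Wald test on the shrunken change (adjusted p = 0.153). The first 7 enzymes of the list all lay above 0. The thiolase ACAT2 was at 0.10, phosphomevalonate kinase PMVK at 0.15, mevalonate decarboxylase MVD at 0.02, the isomerase IDI1 at 0.15 and farnesyl diphosphate synthase FDPS at 0.17 in the authors' deposited table, with adjusted p from 0.175 to 0.946.

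The middle of the pathway was near 0. Squalene synthase FDFT1 (0.08, 95% interval -0.10 to 0.27), squalene epoxidase SQLE (-0.09, -0.38 to 0.20) and lanosterol synthase LSS (-0.09, -0.27 to 0.09) did not pass the threshold in the authors' deposited table. SQLE, a rate-limiting enzyme of the squalene branch and an SREBP2 target, was the least precise of these, at a mean of 196 normalized counts.

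Of the 8 enzymes after lanosterol, 6 lay above 0, and SC5D alone passed an adjusted p of 0.05. SC5D, the sterol desaturase whose product the reductase DHCR7 takes up, was higher by 0.52 log2 units (SE 0.10, adjusted p = 3.28e-07, 1.44-fold) in the authors' deposited table, with a mean of 635 normalized counts. DHCR7 was at 0.25 (SE 0.12, adjusted p = 0.0701). MSMO1, the oxidase that removes methyl groups from sterols, was at -0.34 (SE 0.18, adjusted p = 0.0537), the lowest of the 18 enzymes. DHCR7 and MSMO1 both passed, upward and downward, when p-values were adjusted over genes whose mean reached 50 (adjusted p = 0.0486 and 0.0365). Lanosterol demethylase CYP51A1 (0.18, adjusted p = 0.189), NSDHL (0.18, adjusted p = 0.308), the isomerase EBP (0.10, adjusted p = 0.542), the reductase TM7SF2 (0.04, adjusted p = 0.832) and the ketoreductase HSD17B7 (-0.04, adjusted p = 0.875) did not pass in the authors' deposited table. HSD17B7 had the lowest mean of the 33, at 50.9 normalized counts, and a 95% interval from -0.41 to 0.34.

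Of the 5 fatty acid genes, 2 fell (40.0%, against 12.4% of genes whose mean reached 100) and none rose. The list is short, and its share was not tested. The chain-building enzymes ACLY, which makes cytosolic acetyl-CoA (-0.02, 95% interval -0.24 to 0.19), the carboxylase ACACA (0.10, -0.07 to 0.27) and the synthase FASN (0.01, -0.14 to 0.16) did not pass in the authors' deposited table. The genes that fell were ELOVL6, which lengthens palmitate, with a log2 change of -0.52 (SE 0.16, adjusted p = 0.000674, 1.43-fold lower) and the desaturase SCD, which introduces a double bond, with -0.46 (SE 0.15, adjusted p = 0.00185, 1.38-fold lower), per the authors' deposited table. ELOVL6 had a mean of 977 normalized counts and SCD one of 1294. SCD did not pass when the changes were shifted to a median of 0 and put to a Wald test (adjusted p = 0.066). ELOVL6 kept its call there, in the Wald test without the shift and at a threshold of 0.01. Other elongase and desaturase genes, ELOVL1 (-0.12), ELOVL5 (-0.18), FADS1 (0.03) and FADS2 (0.11), did not pass in the authors' deposited table, with adjusted p from 0.211 to 0.854.

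Sterol transport genes went in opposite directions. STARD4, a soluble carrier that moves sterol between membranes, rose by 0.72 log2 units (SE 0.15, adjusted p = 4.12e-06, 1.64-fold) at a mean of 361 normalized counts, the largest rise of the 33 genes in the authors' deposited table. NPC1, the membrane protein that exports cholesterol from lysosomes, fell by 0.69 (SE 0.13, adjusted p = 4.19e-07, 1.62-fold lower) at a mean of 1931. NPC2, the soluble protein that hands cholesterol to NPC1, was at -0.01 (95% interval -0.23 to 0.21). NPC1 minus NPC2 was -0.68 (SE 0.18, 95% interval -1.03 to -0.34), also a pair picked after its values were seen.

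**Figure D2:**
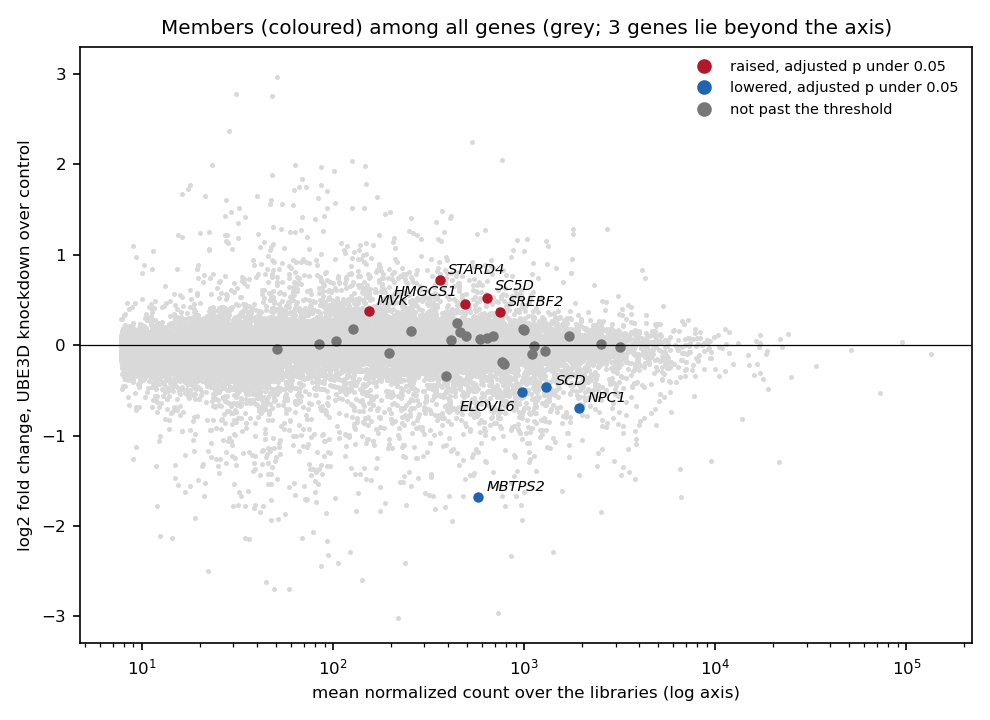
Log2 fold change in UBE3D knockdown over control cells against mean normalized count on a log axis, with all genes in light grey and the 33 members coloured by call. The 9 called members are spread from a mean of 153 (MVK) to 1931 (NPC1), and MBTPS2 lies near the lower edge of the cloud.

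Levels were compared between genes only per kilobase of exon, as the deposited mean normalized count over the summed length of all annotated exons. The median of the members was 116 per kilobase, against 24.5 over all genes. ACLY stood highest at 605 per kilobase, followed by NPC2 at 406, EBP at 286, CYP51A1 at 276, FASN at 268 and FDPS at 267. The mevalonate kinase and decarboxylase genes were among the lowest, with MVK at 23.6 and MVD at 17.9 per kilobase, and HSD17B7 was last at 10.6. SREBF2 and SREBF1 stood at 98.7 and 97.7, and MBTPS2 at 64.2 against 125 for MBTPS1. These levels are means over all 6 libraries, so they carry no spread and no order was tested.

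Promoter sequence was set beside these values, because SREBPs bind sterol regulatory elements and E-boxes and work with the factor NF-Y, which binds CCAAT boxes. RefSeq promoter windows (GRCh38.p14), from 250 bases before to 50 after a gene's start, matched 29 of the 33 members by symbol, with 39 windows. The windows of the 5 raised genes and of MBTPS2, the gene that fell most, are shown 5' to 3' on the gene's strand, with capitals marking matches on either strand to the sterol element letters TCACNCCAC, the E-box CACGTG or the box CCAAT (its reverse complement reads ATTGG). Where a gene had several windows, the one nearest its GENCODE start is given.
SREBF2: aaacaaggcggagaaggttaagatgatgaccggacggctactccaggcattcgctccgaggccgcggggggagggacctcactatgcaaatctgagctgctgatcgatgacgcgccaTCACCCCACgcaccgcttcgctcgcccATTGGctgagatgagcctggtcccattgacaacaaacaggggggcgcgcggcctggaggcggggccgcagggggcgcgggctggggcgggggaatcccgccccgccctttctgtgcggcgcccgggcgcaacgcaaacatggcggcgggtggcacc
HMGCS1: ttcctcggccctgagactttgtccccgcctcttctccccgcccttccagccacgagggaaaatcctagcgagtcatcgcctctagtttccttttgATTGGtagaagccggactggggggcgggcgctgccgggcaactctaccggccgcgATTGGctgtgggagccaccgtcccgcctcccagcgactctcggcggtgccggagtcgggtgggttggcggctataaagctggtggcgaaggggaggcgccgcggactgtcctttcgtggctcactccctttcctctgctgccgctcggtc
MVK: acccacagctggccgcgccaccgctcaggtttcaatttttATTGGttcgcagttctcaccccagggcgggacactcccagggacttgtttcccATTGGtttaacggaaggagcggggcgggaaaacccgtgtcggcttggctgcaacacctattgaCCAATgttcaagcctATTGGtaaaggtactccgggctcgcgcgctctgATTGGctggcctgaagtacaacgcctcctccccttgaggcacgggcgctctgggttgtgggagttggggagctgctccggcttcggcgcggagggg
SC5D: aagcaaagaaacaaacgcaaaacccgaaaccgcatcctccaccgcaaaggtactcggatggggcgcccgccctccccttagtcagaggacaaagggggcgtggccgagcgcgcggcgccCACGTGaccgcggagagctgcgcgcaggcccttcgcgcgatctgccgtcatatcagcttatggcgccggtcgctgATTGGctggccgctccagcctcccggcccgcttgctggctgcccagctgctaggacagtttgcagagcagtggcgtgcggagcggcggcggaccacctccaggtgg
STARD4: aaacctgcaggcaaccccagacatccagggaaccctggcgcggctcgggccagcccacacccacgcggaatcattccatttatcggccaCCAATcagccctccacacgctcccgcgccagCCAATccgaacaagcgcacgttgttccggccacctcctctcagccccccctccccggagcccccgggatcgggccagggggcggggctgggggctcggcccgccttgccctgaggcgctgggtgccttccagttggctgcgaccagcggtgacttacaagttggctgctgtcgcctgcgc
MBTPS2: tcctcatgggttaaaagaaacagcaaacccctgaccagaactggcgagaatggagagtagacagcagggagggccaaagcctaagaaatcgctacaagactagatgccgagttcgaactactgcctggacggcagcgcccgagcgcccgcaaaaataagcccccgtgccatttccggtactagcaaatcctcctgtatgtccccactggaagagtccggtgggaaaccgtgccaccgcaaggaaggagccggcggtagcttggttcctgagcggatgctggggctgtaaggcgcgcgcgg
They lie at chr22:41832855-41833154 (plus strand, SREBF2), chr5:43313363-43313662 (minus, HMGCS1), chr12:109573544-109573843 (plus, MVK), chr11:121292521-121292820 (plus, SC5D), chr5:111512486-111512785 (minus, STARD4) and chrX:21839367-21839666 (plus, MBTPS2).

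All 5 raised genes hold a CCAAT box in the window shown, MVK 5 of them, and the MBTPS2 window holds none of the 3 motifs. The sterol element letters were found in SREBF2 alone among the 29 members, 133 bases before the start, and in 1.13% of all 35114 promoter windows. The E-box was found in SC5D, SCAP, INSIG1 and LSS, in 5 of the 39 member windows (12.8%), against 7.26% of all windows and 9.61% of those of genes whose mean reached 100. CCAAT was found in 24 of the 39 member windows (61.5%), against 34.6% of all windows and 34.9% of the 11269 windows of genes whose mean reached 100. Windows of a gene can overlap: the 2 SC5D windows hold the same E-box and CCAAT box, and the 2 ACLY windows the same CCAAT boxes. Of the 20 members with a CCAAT box in any window, 5 rose, 1 fell (SCD) and 14 did not pass, with a median log2 fold change of 0.10. Of the 9 members without it, none rose, 3 fell (MBTPS2, NPC1 and ELOVL6) and 6 did not pass, with a median of -0.18. Over all genes whose mean reached 100 and that have a window, 8.37% of the 3347 with the box and 6.98% of the 4256 without it rose, 11.4% and 13.1% fell, and their medians were 0.01 and -0.01. These splits are descriptions with no test, and a gene with no match in these windows may hold the letters elsewhere.

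**Figure D3:**
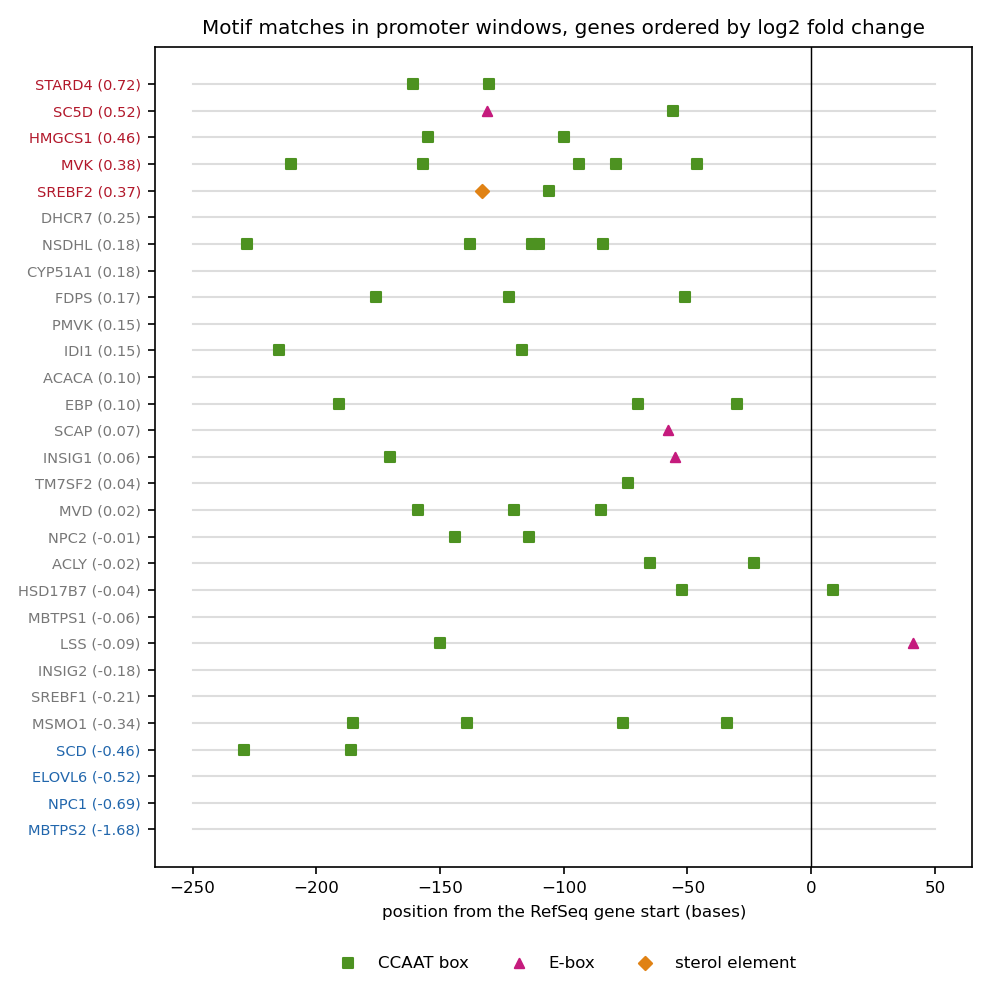
Positions of CCAAT boxes (squares), E-boxes (triangles) and the sterol element (diamond) in bases from the RefSeq start, in 1 window for each of 29 members ordered by log2 fold change (in parentheses), with gene names red for raised, blue for lowered and grey for the rest. The 5 raised genes at the top each have at least 1 square, and the 3 lowest rows, ELOVL6, NPC1 and MBTPS2, have no mark.

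Of the 2014 readthrough regions (DoG regions, transcription that runs on past a gene's end), 4 carry the name of a member: INSIG2, SCAP, ELOVL6 and NPC1. In the authors' deposited readthrough table the NPC1 region was lower by a log2 change of -0.29 (SE 0.10, adjusted p = 0.00896) with a region mean of 531 normalized counts, and no member's region rose; over all regions 12.7% rose and 16.1% fell. The INSIG2 region was at 0.33 (SE 0.17, adjusted p = 0.0528) at a mean of 76.2, the SCAP region at -0.16 (SE 0.13, adjusted p = 0.283) and the ELOVL6 region at -0.16 (SE 0.13, adjusted p = 0.286). For the other 29 members, all 5 raised genes and MBTPS2 included, a region was not analysed here.

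Set against its host, no region passed the threshold; over the 1798 regions matched to a host by name, 4.06% were higher and 4.62% lower than their host at an adjusted p under 0.05. The change of the NPC1 region minus that of NPC1 was 0.41 (SE 0.17, 95% interval 0.08 to 0.74, adjusted p = 0.128). The INSIG2 region minus INSIG2 gave 0.51 (SE 0.23, 0.06 to 0.95, adjusted p = 0.188), the ELOVL6 region minus ELOVL6 0.36 (SE 0.20, -0.04 to 0.76, adjusted p = 0.361) and the SCAP region minus SCAP -0.22 (SE 0.15, -0.51 to 0.07, adjusted p = 0.454). A region and its host come from the same libraries and both changes are shrunken, so the differences and their summed errors are approximate. At unadjusted p the INSIG2 (p = 0.0263) and NPC1 (p = 0.0158) differences lay under 0.05 by this normal test with no permutation. PTPN23, on the opposite strand, ends 253 bases past the annotated end of SCAP in GENCODE 29, and its log2 fold change was -0.03 (adjusted p = 0.843) in the authors' deposited table. RMC1, also on the opposite strand, reaches into the annotated span of NPC1. Its symbol was not matched to a measured gene here, so its level and change are not given. The stretch each region covers is not given in the sources used here.

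**Figure D4:**
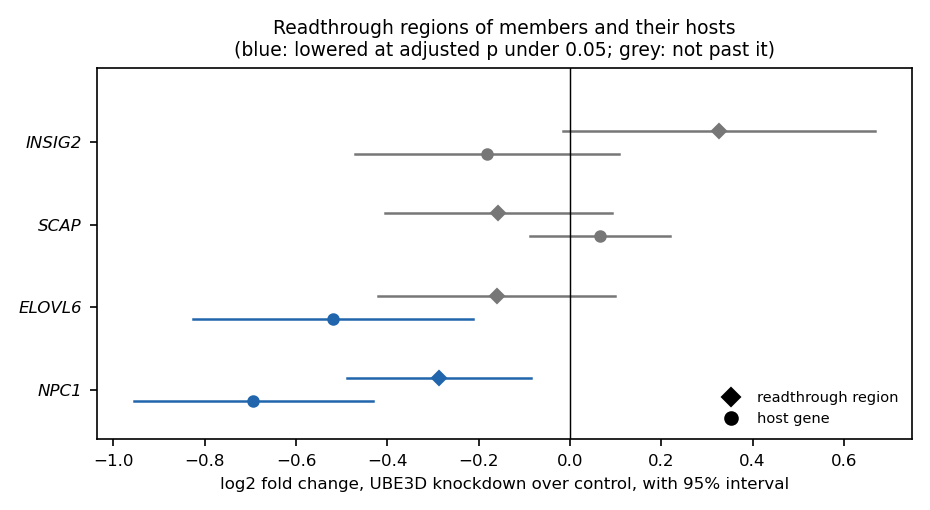
Log2 fold change in UBE3D knockdown over control cells of the 4 readthrough regions named for members (diamonds) and of their host genes (circles), with normal 95% intervals, blue for lowered at an adjusted p under 0.05 and grey otherwise. Region and host intervals overlap for INSIG2, SCAP, ELOVL6 and NPC1.

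Other genes of sterol and lipid handling were read from 6 further lists, 77 genes in all, of which 6 rose and 10 fell in the authors' deposited table (7.79% and 13.0%, against 7.45% and 12.4% of genes whose mean reached 100). No single list was tested. Among 16 other SREBP targets and lipogenic genes, 2 rose and 2 fell (12.5% each). The acetyl-CoA synthetase gene ACSS2 (0.36, SE 0.13) and the acetoacetyl-CoA synthetase gene AACS (0.26, SE 0.10) rose. The phosphatidate phosphatase gene LPIN1 (-0.42, SE 0.11) and the lipid droplet lipase gene PNPLA3 (-0.57, SE 0.31) fell. Adjusted p ran from 0.000109 to 0.0222 in the authors' deposited table. Of 12 genes of the nonsterol isoprenoid branch, such as GGPS1 and the farnesyltransferase subunits, none passed, and 2 (16.7%) had an unadjusted p under 0.05, against 24.2% of all genes.

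In a list of 12 genes of sterol efflux, uptake, esterification and the LXR receptors, 2 fell and 2 rose, 16.7% each. Of genes whose mean reached 100, 12.4% fell and 7.45% rose. ABCA1, which exports cholesterol to lipoproteins, fell by 0.98 (SE 0.12, adjusted p = 1.55e-16), and the lipoprotein receptor gene LRP8 by 0.50 (SE 0.13, adjusted p = 0.000118), in the authors' deposited table. The other exporter listed, ABCG1, was at -0.06 (adjusted p = 0.788). In the same list, LPCAT3, a phospholipid-remodelling enzyme, rose by 0.57 (SE 0.15) and the lysosomal lipase gene LIPA by 0.35 (SE 0.15). Of 14 genes in a list of intracellular sterol and lipid transfer, 4 fell (28.6%) and none rose. They were GRAMD1B (-1.22, SE 0.40, at a mean of 115 normalized counts), OSBPL10 (-0.52, SE 0.15), TMEM41B (-0.52, SE 0.15) and OSBP (-0.28, SE 0.11) in the authors' deposited table. Of 11 factors of sterol-regulated degradation, 2 fell (18.2%) and 9 did not pass. Those that fell were the ubiquitin ligase gene RNF145 (-0.86, SE 0.12, adjusted p = 1.15e-11), whose product acts on SCAP in mouse liver, and FAF2 (-0.28, SE 0.10).

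On the route that carries SCAP and SREBP to the Golgi, SAR1B, a GTPase of COPII vesicles, rose by 0.97 (SE 0.14, adjusted p = 1.14e-11), and its paralog SAR1A was at 0.02 in the authors' deposited table. SAR1B minus SAR1A, again a pair picked after its values were seen, was 0.95 (SE 0.17, 95% interval 0.62 to 1.29). The coat genes SEC24C (0.11) and SEC24D (-0.06) did not pass. PGRMC1, a haem-binding membrane protein gene, also rose (0.33, SE 0.16, adjusted p = 0.0411). Of the 12 modulators listed, 2 thus rose (16.7%, against 7.45% of genes whose mean reached 100). The other 10 did not pass, C12orf49, FBXW7 and PAQR3 among them.

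**Figure D5:**
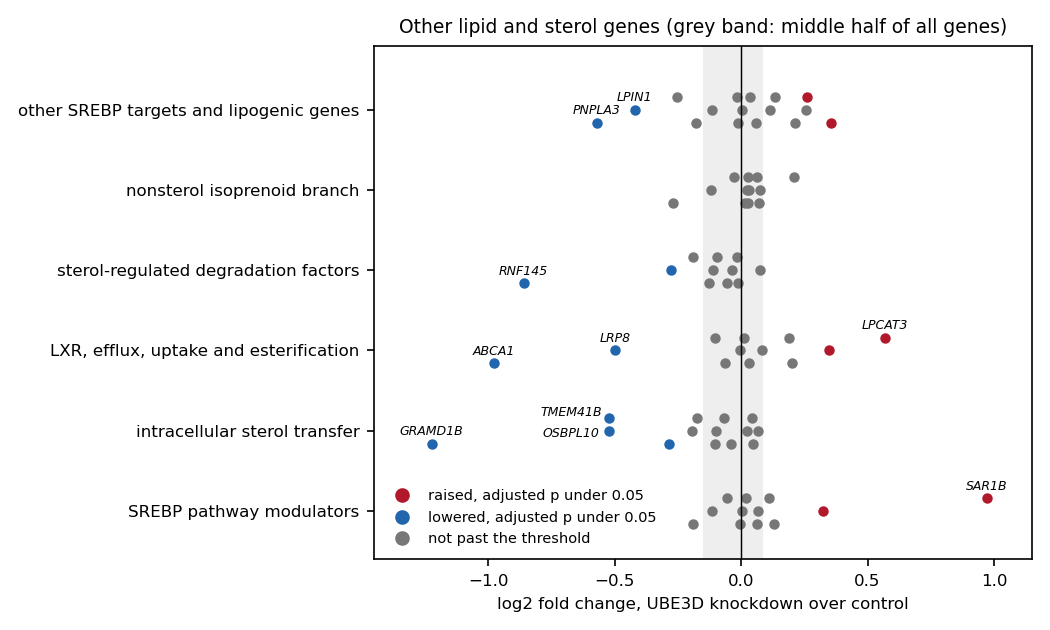
Log2 fold change in UBE3D knockdown over control cells of 77 other genes of lipid and sterol handling in 6 lists, red for raised, blue for lowered and grey for genes not past an adjusted p of 0.05, with a grey band for the middle 50% of all genes. SAR1B (0.97) lies farthest right, and GRAMD1B (-1.22), ABCA1 (-0.98) and RNF145 (-0.86) farthest left.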

How the data were processed

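Libraries were stranded, made from total RNA after ribosomal depletion and random priming, and read as 75 bp pairs, per the labels' protocols. Tools named in the submitters' processing notes are STAR 2.5.2b, cutadapt 1.8.1 and DESeq2, with the build hg38. How reads were counted (tool, annotation, strand) and how DoG regions were called is not given in the sources used here. Each row of the authors' deposited tables holds a mean normalized count over libraries (treated as signal), a log2 fold change and its SE (log2), and p-values before and after adjustment, per the file headers. Depth per library is unknown. In 20112 of 20115 genes the ratio of deposited change to SE was smaller than the p-value implies under a normal law, as shrinkage toward 0 makes it. The lowest mean listed is 7.74.

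Genes were called at the authors' adjusted p (DESeq2) under 0.05, which equals a Benjamini-Hochberg adjustment over all rows. Intervals are the change plus or minus the normal 95% width of its SE. Region minus host differences used a normal test on the root of the summed squared SE, adjusted over 1798 regions. It takes the errors of region and host as independent, although both come from the same libraries. Named were UBE3D, all 33 members, their regions, and up to 4 called genes per further list; genes shown for a pair, a neighbour or a role were chosen after values were seen. The members and lists were chosen with earlier results of these data known. Exon lengths and positions come from GENCODE 29 (GRCh38) and promoters from RefSeq. Motifs were fixed strings of letters matched exactly, with N for any base, so variants of a motif were not found. Of the members, 9 overlap a measured gene of the opposite strand and 2 one of the same strand, as matched by symbol. The overlap of NPC1 with RMC1, which was not matched, is not in that count. Python 3.11.15, numpy 2.4.6, pandas 2.3.3, scipy 1.17.1 and matplotlib 3.10.9 were used.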

Additional observations from a re-analysis of the deposited data

How the results depend on the processing

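No paired analysis was possible because the deposited tables hold 1 comparison and no value per library; for the same reason no replicate could be left out and no other normalization of counts tried. Of the 9 called members, 7 kept their call in all 7 alternatives for the gene table (thresholds of 0.01 and 0.1, adjustment over genes whose mean reached 50 or 100, a Wald test on the deposited change, the same after a shift to a median of 0, and a minimum fold); MVK and SCD were the others. Among these alternatives, a threshold of 0.1 cannot remove a call. Adjustment over abundant genes and the minimum fold removed no member's call, so losses came only at 0.01 and in the Wald tests. The members raised numbered 4 to 6 and those lowered 3 to 6. Over the whole gene table, 929 genes rose and 1595 fell; 579 rose at a threshold of 0.01, 390 rose and 826 fell in the Wald test, and 440 rose and 736 fell after the shift. Both Wald tests use shrunken changes, whose ratio to SE was smaller than the deposited p implies in 20112 genes. After the shift ACLY (0.0029) and NPC2 (0.014) changed sign, both at an adjusted p near 1. At a threshold of 0.1 the INSIG2 region counted as raised (1 region against 0). With the longest transcript as length, the members' median level was 169 per kilobase against 116, as that length is shorter. Changes without shrinkage were not rebuilt, since the prior width that the tables imply varied from 0.168 to 1.497 between genes.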

Other observations

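The SREBP genes each carry a microRNA gene of the miR-33 family, MIR33A within SREBF2 and MIR33B within SREBF1, and miR-33 is known to repress ABCA1 and NPC1. The microRNAs themselves were not analysed here. Their mature sequences are shown (RefSeq, GRCh38.p14) because they share a seed, bases 2 to 8, in capitals.
hsa-miR-33a-5p: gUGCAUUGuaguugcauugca
hsa-miR-33b-5p: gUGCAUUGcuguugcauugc
The letters CAATGCA, the match to that seed, stand in the longest annotated 3' UTR of 3 of the 33 members, NPC1, SCAP and LSS (9.09%), against 9.69% of 9127 genes whose mean reached 100 and that have such a UTR. NPC1 fell and SCAP and LSS did not pass. The other lowered members, MBTPS2, SCD and ELOVL6, hold no such match in their longest annotated 3' UTR. The difference between these shares was not tested. The NPC1 match (chr18:23531864-23531890, minus strand) reads as follows, with the match in capitals.
NPC1: aaaggccaatCAATGCActgtctgtct
ABCA1, which fell by 0.98 in the authors' deposited table, holds the match 3 times. ABCA1 was the only gene outside the members whose matches were located, and the share of genes with 3 matches was not counted. The word was searched after the values of NPC1 and ABCA1 were seen. Whether miR-33 has a part in these changes was not tested.

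The words GATTGAA and CTTATCT, picked with earlier results of these data known, were looked up in the same UTRs. GATTGAA is in MSMO1 and FASN (6.06% of members, against 11.3% of the 9127 genes), neither of which passed the threshold, and it is in none of the 4 lowered members. CTTATCT is in STARD4, which rose, and in LSS and CYP51A1, which did not pass (9.09% of members, against 12.5%). These shares rest on few genes and were not tested, and whether either word has a part in the changes was not tested.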
